A study of Mus musculus with 24 samples.

Results

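RNA for 5 receptors of the incretins, glucagon and somatostatin was followed in sorted mouse pancreatic alpha and beta cells over the day. The genes were chosen by symbol: Glp1r, Gipr, Gcgr, Sstr2, Sstr3 and Sstr5 were named, and 5 of these 6 had a row among the 14027 genes of the table, while Sstr5 was not analysed here. Alpha cells secrete glucagon and beta cells secrete insulin. All cells came from a strain labelled triple reporter mouse, and the groups differed in cell type and in the zeitgeber time (ZT, hours of the lighting cycle) at which islets were isolated: ZT0, ZT4, ZT8, ZT12, ZT16 or ZT20. With 2 libraries for each cell type at each time, 12 libraries were from alpha cells and 12 from beta cells. The labels give no age, sex or treatment, do not describe the reporter transgenes, and do not say whether the 2 libraries came from separate animals, so the spread behind every p-value is that between libraries and may be technical.

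As background, GLP-1 and GIP are the incretins, gut hormones released after a meal that increase glucose-dependent insulin secretion. Their receptors (Glp1r and Gipr) and the glucagon receptor (Gcgr) belong to the secretin family of G protein-coupled receptors, and they act mainly through the stimulatory G protein Gs, adenylyl cyclase and cAMP. Somatostatin, released by neighbouring delta cells, acts in the opposite direction: its receptors, among them Sstr2 and Sstr3, couple to inhibitory Gi proteins, lower cAMP and can open GIRK potassium channels. Sstr3 protein is known for its place in the primary cilium.

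The receptors fell into 3 patterns. Glp1r and Gcgr RNA was far higher in beta cells, Sstr2 RNA far higher in alpha cells, and Gipr and Sstr3 RNA was found in every library of both cell types at a higher level in beta cells. Of these 5 receptors, Glp1r had the highest level in beta cells and Sstr3 in alpha cells. Of the 5, Sstr3 alone passed the test for a daily rhythm in one cell type, with its highest level at ZT12 in both.

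Levels are given in RPKM (read number divided by gene length and library size), computed from whole reads recovered from the deposited log2 values. Library depth ranged from 4944982 to 12364190 reads, and the marker genes followed the labels. Of the measured alpha markers 8 of 9 were called higher in alpha cells, beside 11.2% of all genes. Of the beta markers 9 of 10 were called higher in beta cells, beside 9.54% of all genes. In alpha libraries Ins1 and Ins2 together took 0.0378% to 0.506% of the reads, and in beta libraries Gcg took 0.00481% to 0.281%. The 3 libraries with the largest share of the other cell type's hormone were replicate 1 of the ZT4 alpha cells, replicate 1 of the ZT16 alpha cells and replicate 1 of the ZT4 beta cells. All 5 of 5 measured delta cell markers and 3 of 3 markers of pancreatic polypeptide (PP) cells were called higher in alpha libraries, beside 11.2% of all genes. The summed delta markers spanned 2510 to 5180 RPKM in alpha and 645 to 1420 RPKM in beta libraries, and the PP markers 27800 to 59500 and 359 to 1730 RPKM. None of these 8 markers was at 0 in all 12 libraries of a cell type, and their part in the receptor values was not tested. These are bulk samples, so fewer cells of a type and less RNA per cell cannot be told apart.

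**Figure D1:**
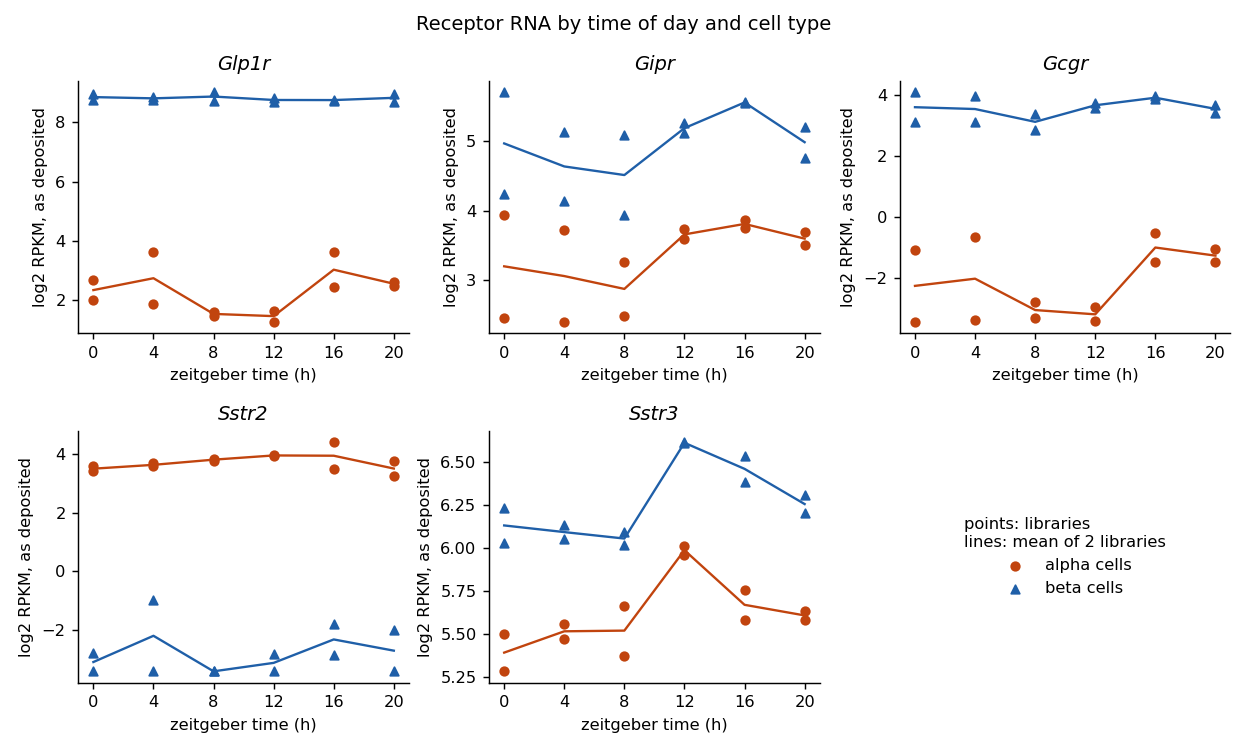
Deposited log2 RPKM (vertical axis) of the 5 receptors against zeitgeber time in hours (horizontal axis), with alpha libraries as circles, beta libraries as triangles and lines through the mean of 2 libraries. Glp1r and Gcgr lie far higher in beta cells, Sstr2 far higher in alpha cells, and Sstr3 is highest at ZT12 in both.

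The sequence before the start of transcription is shown for the pair with the widest differences in opposite directions. These are Glp1r (higher in beta cells) and Sstr2 (higher in alpha cells). A short stretch of Sstr3, cut around the motif in capitals, is shown as well. Sstr3 was the receptor called rhythmic in beta cells, a call that 4 of 34 alternatives lost. The sequences were taken from RefSeq on GRCm38.p6 and read 5′ to 3′ along the gene. The RefSeq promoter table held 4 of the 5 receptors, and Gipr had no entry. Capitals in Sstr2 mark TGACGTCA, the full cAMP response element, and capitals in Sstr3 mark CACGTG, the E-box that core clock activators are known to bind. The Glp1r and Sstr2 sequences end at the RefSeq start or at the GENCODE start of the gene, whichever came first. The Sstr3 stretch precedes a RefSeq start and lies inside the gene as GENCODE annotates it.
Glp1r, chr17:30901617-30901816, plus strand: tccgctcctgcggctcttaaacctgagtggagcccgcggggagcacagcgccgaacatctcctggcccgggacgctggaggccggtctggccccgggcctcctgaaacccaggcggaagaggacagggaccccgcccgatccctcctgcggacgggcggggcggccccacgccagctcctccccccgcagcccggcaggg
Sstr2, chr11:113619127-113619326, plus strand: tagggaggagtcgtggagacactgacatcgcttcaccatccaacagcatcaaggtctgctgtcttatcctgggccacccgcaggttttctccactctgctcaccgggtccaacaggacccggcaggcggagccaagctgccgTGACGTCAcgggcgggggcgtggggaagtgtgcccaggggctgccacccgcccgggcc
Sstr3, chr15:78544359-78544388, minus strand: tccggcaccctcCACGTGtcctggagatgg

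These windows were searched on both strands for 6 motifs in the 250 bases before each RefSeq start. TGACGTCA was found in Sstr2 alone among the 5 receptor windows (Sstr3 has a pair of starts), and 1.55% of all 32851 windows in the table hold it. CACGTG was found in 1 Sstr3 window, and 6.02% of all windows hold it. The D-box TTANGTAA (2.06% of windows), the nuclear receptor core AGGTCA (14%), the homeodomain core TAATTA (4.84%) and the Maf core TGCTGA (16.1%) were in none of the 5 windows. The TGACGTCA and CACGTG motifs read the same on both strands and did not overlap another motif of the search. The share of G and C in the windows was 73.2% for Glp1r, 70.4% for Gcgr, 63.6% for Sstr2, and 57.2% and 55.6% for Sstr3. The median over all windows was 52.4%. Both Sstr3 windows lie inside the gene as GENCODE annotates it. A match describes the letters in the window and was not tied to binding here.

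Glp1r, the receptor for GLP-1, lies at chr17:30901817-30940791 on mm10. In beta cells its level ran from 415.2 to 512.9 RPKM with a median of 434.5, on 5025 to 7876 reads per library. In alpha cells it ran from 2.298 to 12.23 RPKM with a median of 4.567, on 18 to 202 reads. Every beta library was far above every alpha library, and the beta libraries lay within 1.24-fold of each other while the alpha libraries spanned 5.32-fold. Means were 448.8 ± 33.3 RPKM in beta cells against 5.478 ± 3.41 RPKM in alpha cells (SD, n = 12 each). The fitted difference, alpha minus beta on the log2 scale, was -6.53 (SE 0.201), or 92.2-fold higher in beta cells (limma, adjusted p = 2.9e-17).

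Within the alpha libraries the Glp1r level followed the insulin share. The highest values, 12.23 and 12.12 RPKM, were in replicate 1 of ZT16 and replicate 1 of ZT4, the alpha libraries with the most insulin reads (0.356% and 0.506%). Over the 12 alpha libraries Pearson's r of log2 Glp1r with the log2 insulin share of reads was 0.936 (permutation p = 2e-05, adjusted p = 0.00048 over 32 relations) and Spearman's rho was 0.881 (permutation p = 0.00035, adjusted p = 0.0037). Without the 2 libraries farthest from the median share r was 0.829, and at 6 of 6 times the library with more insulin reads was also the one with more Glp1r. A correlation that far from 0 was found for 0.0713% of all genes. As a percentage of its mean level in beta cells, Glp1r in alpha libraries ran from 0.512% to 2.72% with a median of 1.02%. The 10 beta cell markers, which did not include Glp1r, had a median of 0.653% to 2.98% of their beta level in the same libraries, with a middle value of 0.976%. Insulin RNA stood at 0.158% to 2.02%, and the range of Glp1r overlapped that of the beta markers. Without the 3 libraries with the most reads of the other hormone, the fitted difference was -6.79.

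Gcgr, the glucagon receptor, lies at chr11:120530699-120538986 and was also a beta cell transcript here. Its beta level ran from 7.197 to 17.02 RPKM with a median of 12.35, on 222 to 492 reads. In alpha cells it ran from 0.02743 to 0.6392 RPKM with a median of 0.1863, and 96 reads fell on it in the 12 libraries together (95% Poisson interval 77.8 to 117, counting error only). The groups did not overlap, and 6 of the 12 alpha libraries held 3 reads or fewer. The mean was 12.25 ± 3.16 RPKM in beta cells against 0.2403 ± 0.227 RPKM in alpha cells (SD, n = 12 each), a ratio of 51.0. The fitted difference was -5.70 (SE 0.306), or 52.1-fold higher in beta cells (limma, adjusted p = 2.5e-13). With log2(RPKM + 1) it was -3.40, since a pseudocount of 1 exceeds every alpha value.

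The alpha libraries with the most Gcgr were again replicate 1 of ZT16 with 21 reads and replicate 1 of ZT4 with 19 reads. Gcgr in alpha cells stood at 0.224% to 5.22% of its mean beta level, with a median of 1.52%, against 0.158% to 2.02% for insulin RNA. Its r with the insulin share was 0.745 (permutation p = 0.0017, adjusted p = 0.006) and its rho 0.678 (permutation p = 0.019, adjusted p = 0.043), and r was 0.557 without the 2 farthest libraries. A correlation with the insulin share that far from 0 was found for 2.09% of all genes. At 4 of 6 times the alpha library with more insulin reads had more Gcgr. The nuclear RNA Malat1 also correlated with Gcgr in the alpha libraries, as given below. In 5 alpha libraries Gcgr had 1 read, so the order of the lowest values cannot be read. Gcgr overlaps the antisense gene Gm11789, Sstr2 lies inside Slc39a11 on the opposite strand, and Glp1r overlaps a pair of unnamed antisense transcripts. The strand setting of the counting is not given in the sources used here, so reads of these genes and their antisense partners cannot be told apart.

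**Figure D2:**
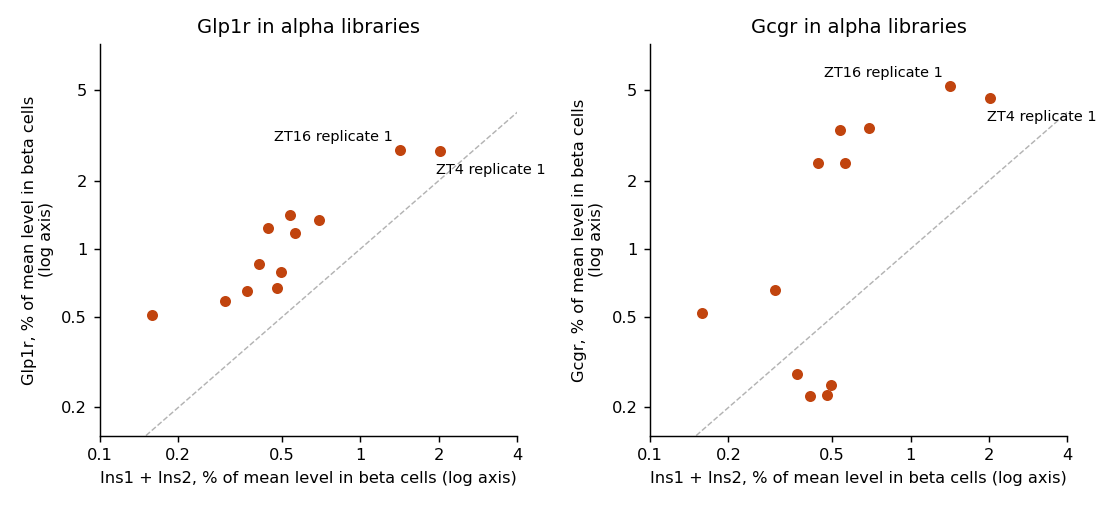
Glp1r (left) and Gcgr (right) in the 12 alpha libraries as a percentage of the mean level in beta cells, against Ins1 plus Ins2 on the same scale, with all axes logarithmic and equality dashed. Replicate 1 of ZT4 and replicate 1 of ZT16 are highest on both axes, and 4 libraries fall below the line for Gcgr.

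Gipr, the receptor for GIP, lies at chr7:19156061-19166127 and was shared by both cell types. In beta cells it ran from 15.17 to 52.12 RPKM with a median of 34.78, and in alpha cells from 5.173 to 15.28 RPKM with a median of 12.35. The groups overlapped narrowly: the lowest beta library, replicate 1 of ZT8, was just below the highest alpha library, replicate 2 of ZT0. Mean levels were 33.69 ± 12.1 RPKM in beta cells against 10.9 ± 3.66 RPKM in alpha cells (SD, n = 12 each). The fitted difference was -1.61 (SE 0.201), or 3.06-fold higher in beta cells (limma, adjusted p = 3.5e-07), and over the 6 times it lay between -1.77 and -1.39. No gene of the annotation overlaps Gipr, and the alpha libraries held 96 to 339 reads each. Alpha Gipr stood at 15.4% to 45.4% of its mean beta level, with a median of 36.6%.

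Sstr2, a somatostatin receptor, lies at chr11:113619342-113626028 and was the one receptor of the 5 that was higher in alpha cells. Its alpha level ran from 9.476 to 21.14 RPKM with a median of 13.08, on 174 to 509 reads. In beta cells it had 0 reads in 6 of 12 libraries and 19 reads in all (95% Poisson interval 11.4 to 29.7), of which 9 were in replicate 1 of ZT4, the beta library with the most Gcg reads. All 12 alpha libraries were above all 12 beta libraries. Means were 13.42 ± 3.05 RPKM in alpha cells against 0.07475 ± 0.123 RPKM in beta cells (SD, n = 12 each), a ratio of 180, or 302 without that beta library. The fitted difference was 6.55 (SE 0.237), or 93.5-fold higher in alpha cells on the deposited scale (limma, adjusted p = 8.9e-17), a size that depends on the prior count because beta libraries were at 0. It was 3.73 with log2(RPKM + 1), 7.72 with voom on the recovered reads and 6.81 without the 3 libraries with the most reads of the other hormone. Sstr2 reached 3.04% of its mean alpha level in replicate 1 of ZT4 beta cells, where Gcg RNA reached 1.52% and the 9 alpha markers a median of 4.41%.

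Sstr3, the ciliary somatostatin receptor, lies at chr15:78537008-78544685 and was abundant in both cell types. In beta cells it ran from 64.7 to 97.81 RPKM with a median of 74.28, and in alpha cells from 38.94 to 64.55 RPKM with a median of 47.96. The ranges met without crossing, and each library held 1342 reads or more. Means were 77.79 ± 12.3 RPKM in beta cells against 49.52 ± 7.63 RPKM in alpha cells (SD, n = 12 each). The fitted difference of -0.65 (SE 0.048), or 1.57-fold higher in beta cells, was small but even over the times, from -0.79 to -0.53 (limma, adjusted p = 2.8e-11). It was below the 2-fold threshold for a call.

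A call between the cell types needed both a fold of 2 or more and an adjusted p under 0.05. Of the 5 receptors 4 met this, 1 higher in alpha and 3 higher in beta cells. Among all genes 20.7% were called, 11.2% higher in alpha and 9.54% higher in beta cells. By adjusted p alone 5 of 5 passed, beside 74.9% of all genes, and for 4 of 5 the 12 alpha libraries all lay on one side of the 12 beta libraries, beside 26% of all genes. The median log2 difference over all genes was 0.013. The 4 calls held when each library was left out in turn.

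**Figure D3:**
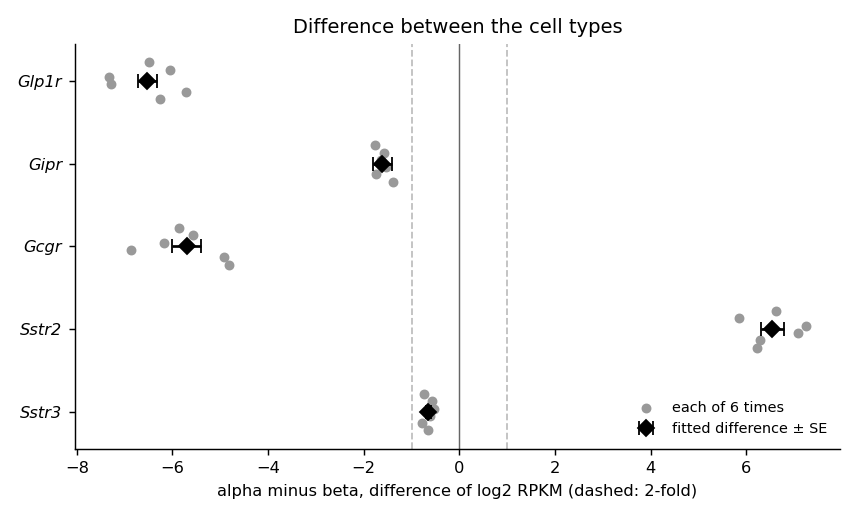
Difference of log2 RPKM, alpha minus beta (horizontal axis), for each receptor, with grey points for the 6 times, a diamond and bar for the fitted difference ± SE, and dashed lines at 2-fold. Sstr2 lies at 6.55, Glp1r and Gcgr at -6.53 and -5.70, Gipr at -1.61 and Sstr3 at -0.65 inside the dashed lines.

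Levels per length can be ordered within a cell type, with the gene lengths the authors used (1480 bases for Glp1r, 1792 for Gipr, 2973 for Gcgr, 2089 for Sstr2 and 3928 for Sstr3). In beta cells the order by mean RPKM was Glp1r, Sstr3, Gipr, Gcgr and Sstr2, and each receptor exceeded the next in 12 of 12 libraries. Glp1r exceeded Sstr3 5.77-fold there, Sstr3 exceeded Gipr 2.31-fold and Gipr exceeded Gcgr 2.75-fold. In alpha cells the order was Sstr3, Sstr2, Gipr, Glp1r and Gcgr. There Glp1r and Gcgr moved with the insulin share, as given above, and the part of beta cell RNA in them was not tested. Sstr2 and Gipr were neighbours that did not differ beyond their spread, with Sstr2 above Gipr in 8 of 12 libraries, while the other neighbours kept their order in 12 of 12.

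Among the receptors that act through Gs, Glp1r made up 90.7 ± 2.93% of the summed RPKM of Glp1r, Gipr and Gcgr in beta cells, and Gipr 6.81 ± 2.35% (SD, n = 12). In alpha libraries the balance lay with Gipr, at 66.7 ± 10.9%, before Glp1r at 32.1 ± 10.4% and Gcgr at 1.19 ± 0.884%. Glp1r in these libraries followed the insulin share (r = 0.936), as given above. Its median was 1.02% of its beta level, beside 0.976% for the beta markers. The part of beta cell RNA in this balance was not tested. The sum itself was 495 ± 32.3 RPKM in beta cells against 16.6 ± 6.25 RPKM in alpha cells. The somatostatin receptors Sstr2 and Sstr3 together gave closer sums, 77.9 ± 12.3 RPKM in beta cells against 62.9 ± 9.69 RPKM in alpha cells. Sstr1, Sstr4 and Sstr5 were not analysed here, so this sum covers part of the family. Sstr2 contributed 21.3 ± 2.93% of that sum in alpha cells and 0.0994 ± 0.178% in beta cells.

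Daily variation was tested with a 24 h cosine in each cell type. Sstr3 was the receptor with a rhythm in beta cells, and 1 of 5 was called there, beside 16% of all genes. At ZT12 its beta libraries held 97.81 and 97.36 RPKM, at ZT16 83.34 and 92.71 RPKM, and at the other 4 times 64.7 to 79.23 RPKM. The 4 libraries of ZT12 and ZT16 were thus the highest of the 12. The fitted range from trough to peak was 0.50 on the log2 scale (SE 0.123), or 1.41-fold, with a peak at ZT14.7 ± 0.94 (SE, in hours; limma, adjusted p = 0.025). The call was lost without replicate 1 of ZT12 (adjusted p = 0.057), without replicate 2 of ZT12 (adjusted p = 0.057), without replicate 2 of ZT16 (adjusted p = 0.071) and in a limma fit of the 12 beta libraries alone (adjusted p = 0.056). Over all alternatives the adjusted p ran from 0.015 to 0.071.

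In alpha cells Sstr3 was also highest at ZT12, with 62.21 and 64.55 RPKM against 38.94 to 53.99 RPKM at the other times. The fitted range of 0.44 (SE 0.123), or 1.36-fold, peaked at ZT13.2 ± 1.1 and did not pass (limma, adjusted p = 0.057). It passed without replicate 1 of ZT4 alpha cells (adjusted p = 0.040), without replicate 2 of ZT8 alpha cells (0.039) and without replicate 2 of ZT0 beta cells (0.045). In alpha cells 0 of 5 receptors were called by limma on the deposited values without a replicate block, beside 9.66% of all genes. Sstr3 was called with voom (adjusted p = 0.044). It was also called by limma with a block that links same-numbered libraries of a time (adjusted p = 0.040). Unadjusted p-values were under 0.05 for 3 of the 5: Sstr3 (0.0062), Gcgr (0.02) and Glp1r (0.031), beside 4173 of the 14027 genes. The test of a difference of rhythm between the cell types called 0 of 5 receptors (lowest adjusted p 0.87, for Glp1r) and 0.0713% of all genes; no receptor had an unadjusted p under 0.05 there, and voom called 0 of 5 as well.

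A single cosine for both cell types, a test added after the data were seen, gave Sstr3 a range of 0.46 (SE 0.086), or 1.38-fold, with a peak at ZT14 ± 0.71 (limma, adjusted p = 0.0013). Sstr3 kept this call under all 33 alternatives, with adjusted p from 0.00035 to 0.0056. Gipr passed as well, with a range of 0.88 (SE 0.272), or 1.85-fold, and a peak at ZT16.6 ± 1.2 (adjusted p = 0.037), but lost the call under 11 of the 33 alternatives. These were a replicate block (limma, adjusted p = 0.058), time as a factor (limma, adjusted p = 0.16) and leaving out 1 of 9 single libraries. In both cell types such libraries were replicate 2 of ZT4, replicate 1 of ZT8 and either replicate of ZT16. In alpha cells replicate 1 of ZT20 was another (adjusted p up to 0.085 over the 9). The shared cosine called 2 of 5 receptors beside 38.8% of all genes, so a call by it was common in the table.

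Glp1r did not pass in beta cells, where the means of 2 libraries lay between 430 and 469 RPKM, and the fitted range was 1.07-fold (limma, adjusted p = 0.98). In alpha cells its mean of 2 libraries was lowest at ZT12 with 2.65 RPKM and highest at ZT16 with 8.75 RPKM (adjusted p = 0.13). The latter mean includes replicate 1 of ZT16 with its high insulin share. The main fit shares a single estimate of spread between the cell types. Glp1r varied more between alpha libraries (coefficient of variation 62.2%) than between beta libraries (7.42%). In a limma fit of the 12 alpha libraries alone it had an adjusted p of 0.29. Without replicate 1 of ZT4 alpha cells Glp1r passed in alpha cells (adjusted p = 0.0074), and so did Gcgr (0.0097). Gcgr also passed without replicate 1 of ZT0 alpha cells (0.019), and both passed without the 3 libraries with the most reads of the other hormone (0.00063 for Glp1r and 0.024 for Gcgr). Of 34 alternatives, Glp1r passed in alpha cells under 2 and Gcgr under 3. The insulin share moved with both in alpha libraries, as given above, and its part in these rhythms was not tested. Sstr2 passed in neither cell type (adjusted p of 0.72 in the alpha and 0.76 in the beta libraries).

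Gipr and Gcgr varied together between beta libraries. Both were low in replicate 1 of ZT0 (18.75 and 8.683 RPKM), replicate 2 of ZT4 (17.62 and 8.664 RPKM) and replicate 1 of ZT8 (15.17 and 7.197 RPKM), while the other library of each of these times was higher in both. The highest library for both was replicate 2 of ZT0, with 52.12 and 17.02 RPKM. Pearson's r of their log2 values was 0.946 over the 12 beta libraries (permutation p = 3e-05, adjusted p = 0.00048), Spearman's rho was 0.923 (permutation p = 9e-05, adjusted p = 0.0029), and r was 0.893 without the 2 farthest libraries. At 6 of 6 times the beta library with more Gipr had more Gcgr. Among all genes 0.342% correlated with Gcgr as far from 0 in beta cells. In alpha cells r was 0.701 (permutation p = 0.011, adjusted p = 0.027) and rho 0.566 (permutation p = 0.059, adjusted p = 0.12), on 1 to 21 reads of Gcgr.

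The alpha libraries with the same times and replicate numbers were the lowest for Gipr in alpha cells, at 5.369, 5.173 and 5.497 RPKM. The 3 beta libraries were also the lowest of the 12 in the nuclear RNAs Malat1 and Neat1. In beta cells Malat1 ran from 9.29 to 11.3 on the log2 RPKM scale, and these 3 held 9.82, 9.29 and 9.37. Gipr correlated with Malat1 at r = 0.877 in beta cells (permutation p = 0.00011, adjusted p = 0.0012; rho 0.86, permutation p = 0.00063, adjusted p = 0.0038; 0.831 without the 2 farthest libraries). In alpha cells r was 0.802 (permutation p = 0.00093, adjusted p = 0.0037; rho 0.811, permutation p = 0.0019, adjusted p = 0.0082; 0.743 without the 2 farthest libraries). Within times the library with more Malat1 had more Gipr at 5 of 6 times in each cell type. Such correlations were common: 11.5% of all genes in beta and 21.3% in alpha cells were as far from 0 with Malat1, and the median size of r over all genes was 0.57 in beta and 0.569 in alpha cells.

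Gcgr in beta cells had r = 0.879 with Malat1 (permutation p = 0.00026, adjusted p = 0.0014; rho 0.853, permutation p = 0.00063, adjusted p = 0.0038; 0.834 without the 2 farthest libraries). Sstr3 had r = 0.354 with Malat1 in beta cells (permutation p = 0.25; rho 0.455, permutation p = 0.14) and 0.104 in alpha cells (permutation p = 0.74; rho 0.231, permutation p = 0.47). Glp1r in beta cells had r = -0.285 (permutation p = 0.37; rho -0.259, permutation p = 0.42). In alpha cells r with Malat1 was 0.823 for Gcgr (permutation p = 0.0023, adjusted p = 0.0068) and 0.744 for Glp1r (permutation p = 0.0057, adjusted p = 0.015). Their rho was 0.706 and 0.762, and r was 0.78 and 0.66 without the 2 farthest libraries. With Neat1 r was 0.791 and 0.636 (permutation, adjusted p = 0.006 and 0.056). As far from 0 with Malat1 there were 18% and 29.2% of all genes. These correlations are among 32 relations of 12 libraries each, chosen after values were seen, and differences between them were not tested. Whether the variation shared with Malat1 and Neat1 contributes to the values of Gipr and Gcgr, or of Glp1r in alpha cells, over the day was not tested.

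**Figure D4:**
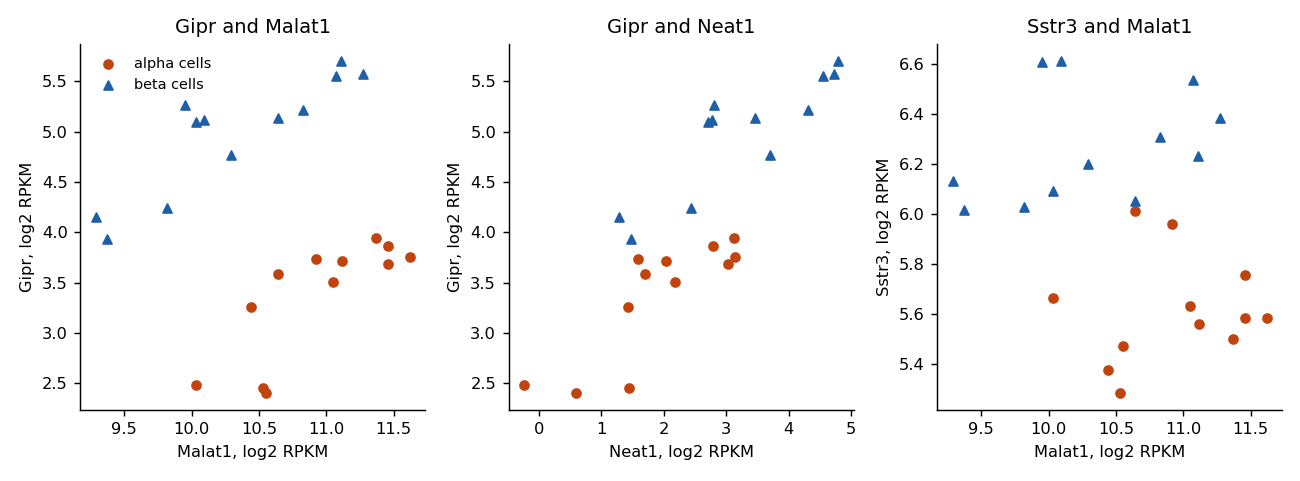
Gipr against Malat1 (left), Gipr against Neat1 (middle) and Sstr3 against Malat1 (right), all in deposited log2 RPKM, with alpha libraries as circles and beta libraries as triangles. Gipr rises with both nuclear RNAs within each cell type, while the highest Sstr3 libraries lie in the middle of the Malat1 range.

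The genes most like each receptor over the 24 libraries were listed as a description, and this likeness includes the difference between the cell types. Nearest to Glp1r were Sytl4 (r = 0.998), a synaptotagmin-like protein of secretory granules, Car10 and Pcsk1 (r = 0.997 each), the convertase that processes proinsulin. Nearest to Gcgr were Jakmip1 (r = 0.990), Mafa (r = 0.988), a transcription factor of mature beta cells, and Filip1 (r = 0.987). Among those near Sstr2 were Kcnip3 (r = 0.991) and the potassium channel Kcnk3 (r = 0.989). For Gipr they were Araf, Helq and Dll4 (r = 0.969, 0.966 and 0.966), and for Sstr3 they were Krt7, Bach1 and Sgsm3 (r = 0.967, 0.959 and 0.951). Likeness was also found inside the cell types. In alpha and beta libraries r of Araf with Gipr was 0.932 and 0.906, and r of Krt7 with Sstr3 was 0.853 and 0.940. For Gcgr r was 0.906 and 0.841 with Jakmip1, 0.908 and 0.459 with Mafa, and 0.866 and 0.604 with Filip1. For Sstr2 r was 0.538 and 0.809 with Kcnip3, and 0.111 and 0.639 with Kcnk3. Sytl4 followed Glp1r in alpha libraries (r = 0.960) and not in beta libraries (r = -0.079).

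The ligands and the enzymes that make or remove them were compared next, with 5 of 7 measured genes called, beside 20.7% of all genes. Gcg, the gene of glucagon and GLP-1, was 865-fold higher in alpha cells on the deposited scale. Pcsk1, the convertase that yields GLP-1 from proglucagon, was 67.9-fold higher in beta cells, with 370.5 ± 44.1 RPKM against 5.866 ± 2.78 RPKM in alpha cells (SD, n = 12 each; limma, adjusted p = 2.3e-18). Sst was 3.05-fold higher in alpha libraries, and Dpp4, the peptidase that degrades the incretins, was 2.20-fold higher in beta cells. Dpp4 was also the 1 gene of this list with a rhythm in each cell type (limma, adjusted p = 0.022 for alpha and 0.018 for beta). Among all genes 9.66% were rhythmic in alpha and 16% in beta cells.

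Other secretin-family receptors on the list were divided between the cell types. All 4 measured ones outside the chosen receptors were called, 2 in each direction, beside 20.7% of all genes. Crhr1, the receptor for corticotropin-releasing hormone and urocortin, was 16.1-fold higher in beta cells on the deposited scale. It stood at 1.634 ± 0.786 RPKM in beta cells against 0.01747 ± 0.0239 RPKM in alpha cells. Vipr1, a receptor for vasoactive intestinal peptide, was 2.03-fold higher in alpha cells, at 34.12 ± 3.69 against 16.84 ± 2.35 RPKM (SD, n = 12 each). Vipr2 was 2.60-fold higher in beta and Calcrl 2.26-fold higher in alpha cells, both under 1 RPKM in every group mean. Crhr1 was the 1 receptor of these with a rhythm, in beta cells (3.32-fold, peak at ZT0.997; limma, adjusted p = 0.0072).

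Genes directly downstream of Gs-coupled receptors were mostly higher in alpha cells. Of 9 measured genes for the stimulatory G protein and adenylyl cyclases, 7 were called higher in alpha cells, beside 11.2% of all genes. In the other direction 0 were called, beside 9.54% of all genes, and 2 were not called. The median log2 difference of the list was 1.57, beside 0.013 over all genes. Gnas, the alpha subunit of Gs, was 3.63-fold higher in alpha cells, at 245 ± 11.7 against 67.48 ± 3.68 RPKM (SD, n = 12 each; limma, adjusted p = 2.7e-20). Of the cyclases that make cAMP, Adcy1 was 70.6-fold, Adcy5 24.4-fold and Adcy3 4.36-fold higher in alpha cells on the deposited scale. In beta cells Adcy1 stood at 0.0433 RPKM and Adcy5 at 0.0508 RPKM, so the size of their folds depends on the prior count. Adcy9, at 26.82 ± 2.26 RPKM in beta against 15.08 ± 1.85 RPKM in alpha cells, was below the fold threshold. Adcy1 was called rhythmic in both cell types, 3.35-fold in alpha and 2.50-fold in beta cells (limma, adjusted p 0.018 and 0.049). The beta call rests on very low values that the prior count affects. Adcy3 was called rhythmic in beta cells (limma, adjusted p = 0.018). In all, 1 of the 9 genes was rhythmic in alpha and 2 in beta cells, beside 9.66% and 16% of all genes.

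Among the effectors of cAMP 3 of 16 genes were called, a share near the 20.7% of all genes. Rapgef3, a cAMP-activated exchange factor, was 8.64-fold higher in alpha cells, while Prkar2b, a regulatory subunit of protein kinase A, was 4.17-fold and the kinase inhibitor gene Pkib 2.29-fold higher in beta cells. Of 14 phosphodiesterases, which break down cyclic nucleotides, 4 were called for alpha and 4 for beta cells, beside 11.2% and 9.54% of all genes. Those with the largest folds were all higher in alpha cells: Pde1a (13.0-fold), Pde8b (3.85-fold), Pde4d (3.83-fold) and Pde1b (3.72-fold). Pde1a stood at 0.014 RPKM in beta cells, so the size of its fold also depends on the prior count. Rhythms were called for Pde1c and Pde10a in both cell types, and Pde10a had a range of 6.0-fold in alpha and 7.07-fold in beta cells. Among the effectors Prkacb and Crem were rhythmic in both cell types. In all, 2 of 16 effectors were rhythmic in alpha and 4 in beta cells, where Crtc1 and Pkib were called too. Of the 14 phosphodiesterases 2 were rhythmic in each cell type. Among all genes 9.66% were rhythmic in alpha and 16% in beta cells.

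On the somatostatin side, 4 of 8 measured Gi and GIRK genes were called, beside 20.7% of all genes. Kcnj3, a GIRK channel subunit, was 95.8-fold higher in alpha cells (10.84 ± 1.02 against 0.1001 ± 0.0918 RPKM; limma, adjusted p = 8.9e-17), while the subunit Kcnj5 was 23.3-fold higher in beta cells on the deposited scale (1.206 ± 0.758 against 0.001677 ± 0.00581 RPKM; adjusted p = 3.8e-14; SD, n = 12 each). Gnai1, an inhibitory G protein subunit, was 6.93-fold and Kcnj6 4.10-fold higher in alpha cells. Gnai2, the most abundant gene of the list in both cell types, had 101.4 ± 9.92 RPKM in alpha cells against 140.9 ± 14.9 RPKM in beta cells and was below the fold threshold. A rhythm was called for 1 of the 8 in alpha cells (Kcnj6) and 2 in beta cells (Gnai1 and Gnao1). Among all genes 9.66% were rhythmic in alpha and 16% in beta cells. Of 9 receptor kinases, arrestins and receptor-activity-modifying proteins, 1 was called between the cell types, beside 20.7% of all genes. It was Grk5, a kinase that phosphorylates activated receptors, 4.41-fold higher in beta cells (limma, adjusted p = 2.7e-16). In that list 0 genes were rhythmic in alpha cells and 1 (Ramp1) in beta cells, beside the same shares of all genes.

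For scale, 15 of 19 measured core clock genes were rhythmic in alpha and 17 in beta cells, beside 9.66% and 16% of all genes. The ranges of those called ran from 1.36-fold for Clock to 37.3-fold for Npas2 in beta cells. In alpha cells they ran from 1.74-fold for Bhlhe41 to 14.8-fold for Npas2. The 1.41-fold range of Sstr3 in beta cells lay near the lower end of the beta span. Its 1.36-fold range in alpha cells was not called and lay below the span of the called genes there. Of the clock genes not called in alpha cells, Clock (1.23-fold) and Rora (1.34-fold) lay below Sstr3 and the others above it. Several clock genes had a peak near that of Sstr3. Hlf, a transcription factor driven by the clock, varied 1.91-fold in alpha and 2.77-fold in beta cells, with peaks at ZT13.9 and ZT13.3. Cry2 varied 1.77-fold and 2.12-fold, with a peak at ZT14.3 in both. Bhlhe40 varied 2.04-fold and 2.78-fold, with peaks at ZT13.5 and ZT14, and was not called in alpha cells. The test of whether the rhythm of Sstr3 differed between the cell types gave an adjusted p of 1 (limma).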

How the data were processed

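The deposited values are log2 values, and the values themselves show them to be log2 RPKM with a prior count of 2.0 on average. The submitters' processing notes name STAR, edgeR (neither with a version) and mm10. Per the labels' protocols, libraries were stranded total RNA after ribosomal RNA removal. For the annotation, counting settings and gene filter, the sources used here give nothing. Whole reads were recovered for all 14027 genes (largest deviation 8e-08), so RPKM means carry no prior count.

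Tests used limma 3.58.1 in R 4.3.3 on the deposited log2 values of all 24 libraries, with trend and robust estimation and Benjamini-Hochberg adjustment over all genes. Cell types were compared with time as a factor of 6 levels with calls needing 2-fold and an adjusted p under 0.05. Rhythms were F-tests of a 24 h cosine. Correlations used 100000 permutations, two-sided. Positions are those of GENCODE on GRCm38. The scripts were tested on simulated reads. The receptors, gene lists, motifs and comparisons were chosen with earlier results of these data known. Named genes were the receptors, the 3 most similar genes of each, and up to 4 called and 3 rhythmic genes of each list. Of the genes this rule takes, 1 is not reported here. Clock, Rora, Npas2, Bhlhe41, Hlf, Cry2, Bhlhe40, Adcy9 and Gnai2 were named after their values were seen. Alternatives covered the pseudocount, low-value filter, scaling, test, block, time model and leaving out libraries.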

Additional observations from a re-analysis of the deposited data

How the results depend on the processing

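The 4 receptors called between the cell types kept their direction and side of the threshold under all 34 alternatives, and Sstr3 was called too at a fold of 1.5. Of all genes, 2903 were called (1565 higher in alpha cells), against 1602 (690) with log2(RPKM + 1), 1755 (739) with a mean log2 value above 0 and 5229 (2704) at a fold of 1.5; leaving out each library gave 2872 to 2939 (1546 to 1594). Rhythmic receptors in alpha cells numbered 1 with voom, 0 to 3 with a library left out and 3 without the 3 libraries with the most reads of the other hormone. Rhythmic genes in alpha cells numbered 1355, against 531 with time as a factor and 348 to 2252 with a library left out. In beta cells 0 receptors and 894 genes were called in the 12 beta libraries alone, 1212 genes with time as a factor, and 0 to 1 receptors and 1077 to 3100 genes with a library left out, beside 2241. The difference of rhythm was called for 10 genes, for 44 with log2(RPKM + 1), 2 with time as a factor, 5 without the 3 libraries and 4 to 14 with a library left out. The shared cosine called 1 receptor with time as a factor, 4 without the 3 libraries and 1 to 3 with a library left out. Causes were not tested.

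Same-numbered alpha and beta libraries of a time deviated together over 11831 genes at r of 0.704, 0.52, 0.448, 0.153, 0.151 and 0.0246 from ZT0 to ZT20. The 2 libraries of a group deviate from their mean by equal and opposite amounts, so each time gives a single r. Each r was above 0, but the labels do not say what a number shares, so libraries were not treated as paired. With a replicate block (consensus correlation 0.271 for levels and 0.397 for rhythms) 4 receptors were called between the cell types, 1 was rhythmic in alpha cells (Sstr3, adjusted p = 0.040, limma), 1 in beta cells and 1 with the shared cosine, where Gipr had an adjusted p of 0.058. The block called 359 genes for the difference of rhythm and 3344 for the shared cosine, beside 10 and 5449. Depth limits Gcgr in alpha and Sstr2 in beta libraries, where single reads set the values.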
